A study of Arabidopsis thaliana with 4 samples.

Results

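The 8 WRKY genes described here are WRKY6, WRKY31, WRKY42 and WRKY47 of group IIb, WRKY23 and WRKY28 of group IIc, and WRKY22 and WRKY29 of group IIe. They are 8 of 72 numbered WRKY genes and of 27444 nuclear protein-coding genes of Arabidopsis thaliana. They were chosen by the peaks near them in both replicate peak lists, together with close relatives that lack such peaks, so all peak values at these genes are a description and none was tested. Binding of SMXL6, a repressor of strigolactone signalling, was mapped in whole seedlings aged 2 weeks by ChIP-seq, the sequencing of DNA that is precipitated with a protein, here through an antibody to its HA tag. The 2 libraries labelled smxl6/7/8 pSMXL6:SMXL6-HA came from plants that lack SMXL6, SMXL7 and SMXL8 and carry HA-tagged SMXL6 under the SMXL6 promoter. The 2 control libraries came from smxl6/7/8 plants without the transgene, precipitated with the same antibody, so both groups share the triple mutation. The labels speak of a transgenic line without saying whether several were used, and do not say whether libraries of a group came from separate cultures. Whole seedlings mix many cell types, and peak lists hold no expression values with which the labelled tissue could be checked.

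WRKY proteins are plant transcription factors named after a conserved amino acid motif in their DNA-binding domain, and they bind short DNA elements called W-boxes. The family is divided into group I, groups IIa to IIe and group III by the number and type of WRKY domains and by sequence. Many members act in defence against pathogens, in senescence and in nutrient responses, and WRKY genes are themselves often controlled by other WRKY factors.

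Peaks were called by the authors once for each SMXL6-HA library against the control library of the same number, which gave list 1 with 1789 peaks and list 2 with 1442 peaks. The score of a peak is the authors' own value, with a median of 92.0 in list 1 and 89.2 in list 2. A rank counts from 1 at the highest score within a list. Scores were read within a list only, since read depth is unknown, and a single peak has no error of its own. The highest score of both lists, 3100, lay over AT1G07200, the SMXL6 gene itself. The SMXL6-HA plants also carry SMXL6 sequence in the transgene, and what this adds to the score was not tested. Distances were measured from the nearest edge of a peak to the nearest end of a gene, with "below" for the side of lower coordinates and "above" for the side of higher ones (TAIR10). Strand was not used here, so promoter and downstream sides are not told apart.

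Of the 8 genes, WRKY6, WRKY47, WRKY23, WRKY28 and WRKY22 had a peak within 5000 bp in both lists, and WRKY31, WRKY42 and WRKY29 had one in neither. Over all protein-coding genes, 12.2% had a peak within 5000 bp in both lists (21.4% in list 1 and 15.4% in list 2), and 75.3% had one in neither. All 5 genes with peaks had them within 1000 bp in both lists, which was the case for 5.13% of protein-coding genes. These shares are background to a choice made with the peaks in view, and nothing was read from the difference. The peak farthest from its gene lay 685 bp away, at WRKY23 in list 2, and the nearest peak outside the window lay 22089 bp away, at WRKY29 in list 1. No peak of either list fell between these distances at any of the 8 genes.

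**Figure D1:**
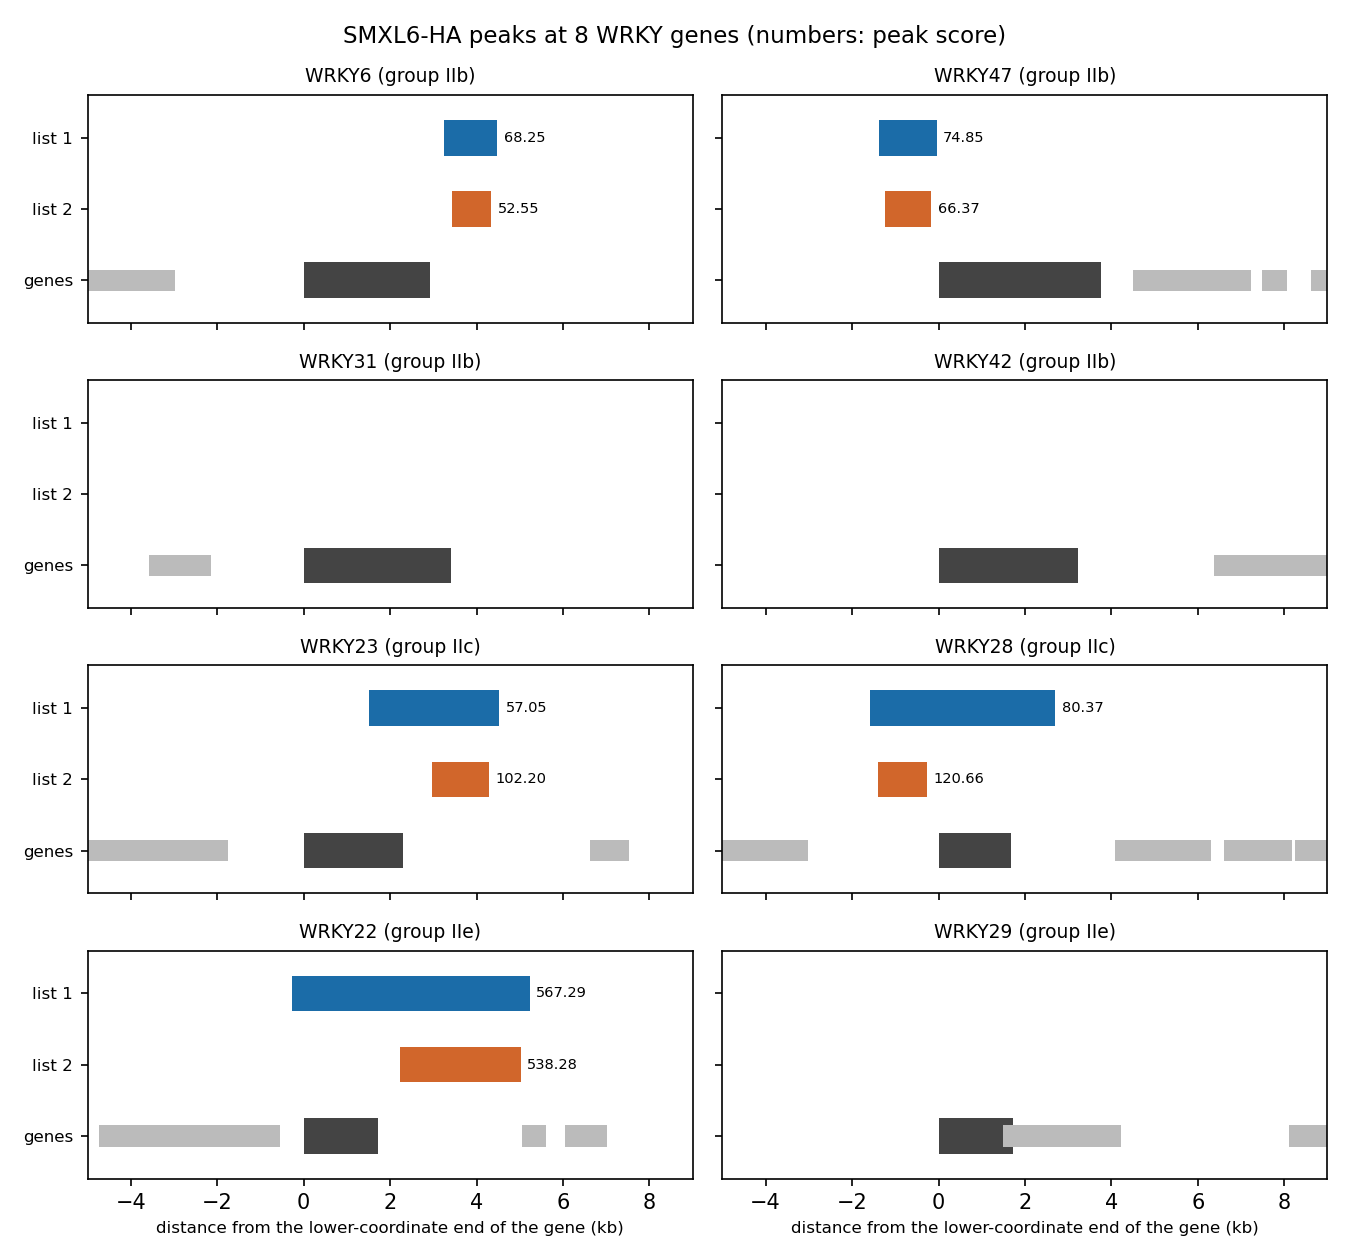
Position of SMXL6-HA peaks at the 8 WRKY genes, with distance in kb from the end of the gene with the lower coordinate on the horizontal axis. Blue bars are list 1 peaks and orange bars list 2 peaks with their scores, the dark bar is the named gene and grey bars are other protein-coding genes; WRKY31, WRKY42 and WRKY29 have no peak, and every list 2 peak lies outside the gene it is shown with.

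WRKY22, of group IIe, acts with WRKY29 downstream of a MAP kinase cascade that is switched on when the receptor FLS2 perceives bacterial flagellin. The gene, AT4G01250, lies at chromosome 4, 522530 to 524249. In list 1 a peak from 522262 to 527757 had a score of 567.29 and rank 28. In list 2 a peak from 524753 to 527553 had a score of 538.28 and rank 47. WRKY22 thus stood near the top of both lists, with 98.5% of list 1 peaks and 96.8% of list 2 peaks at its score or lower.

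The peaks at WRKY22 were also the widest of the 8 genes, with 5496 bp in list 1 and 2801 bp in list 2. The list 1 peak covered the whole gene and ran on for 3508 bp above it. It filled the 3341 bp up to the next protein-coding gene, AT4G01245, and overlapped 30.1% of that gene. The list 2 peak began 504 bp above WRKY22 and ended 38 bp short of AT4G01245, covering 83.8% of the space between them. The midpoint of the list 1 peak had its nearest gene end at WRKY22, 760 bp away, but that of the list 2 peak was nearer to AT4G01245 (1438 bp) than to WRKY22 (1904 bp). When each peak counted solely for the gene whose end was nearest, WRKY22 therefore no longer had a peak in both lists, and which of these genes the peak belongs to was not tested.

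WRKY29, the partner of WRKY22 in flagellin signalling, had no such peak. The gene, AT4G23550, lies at chromosome 4, 12291632 to 12293367, and GH9B15, a glycosyl hydrolase gene, overlaps its upper end. The nearest peak stood 22089 bp above it in list 1 (score 124.67, rank 580) and 23650 bp above it in list 2 (score 299.85, rank 153). Both had their nearest gene end at BTI1, which encodes a reticulon-like protein. Peaks were not scarce in this stretch, with 5 in each list within 100 kb of the middle of WRKY29, against a median over protein-coding genes of 3 in list 1 and 2 in list 2. WRKY27, added after values were seen, is a group IIe gene that affects wilting caused by Ralstonia bacteria. It also had no peak nearby, its nearest peaks being 24497 bp away in list 1 and 41411 bp away in list 2. Of the 8 genes of group IIe, WRKY22 was the one with a peak within 5000 bp in either list.

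In group IIb, WRKY6 and WRKY47 had low-scoring peaks in both lists. WRKY6 is a factor of senescence and pathogen responses that also represses the phosphate exporter gene PHO1. The gene, AT1G62300, lies at chromosome 1, 23016569 to 23019494. Its list 1 peak, from 23019806 to 23021045, had a score of 68.25 and rank 1263 and began 312 bp above the gene. Its list 2 peak, from 23020008 to 23020913, had a score of 52.55 and rank 1365 and began 514 bp above the gene. In list 2 this was a low score by rank, since 5.41% of the peaks had that score or a lower one. The peaks took up 17.2% and 12.6% of the 7197 bp to the next protein-coding gene above, AT1G62305, and WRKY6 had the nearest gene end to each.

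WRKY47, AT4G01720, lies at chromosome 4, 744804 to 748554, 220555 bp from WRKY22. Its list 1 peak, from 743429 to 744760, had a score of 74.85 and rank 1134 and ended 44 bp below the gene. Its list 2 peak, from 743572 to 744638, had a score of 66.37 and rank 1065 and ended 166 bp below the gene. The midpoints of these peaks lay 709 bp and 699 bp below WRKY47 and 10 bp apart. This was the closest agreement in position among the 5 genes, in which midpoints were otherwise 35 bp to 1391 bp apart. WRKY47 had the nearest gene end to both peaks, which lay in the 7838 bp between it and CRK.

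WRKY31 and WRKY42, known as close relatives of WRKY6, had no peak nearby in either list. WRKY42 takes part in the phosphate response, where it represses PHO1 as WRKY6 does and activates the phosphate transporter gene PHT1;1. WRKY31, AT4G22070, lies at chromosome 4, 11691172 to 11694590. Its nearest peaks were 39449 bp below it in list 1 (score 88.26) and 39570 bp below it in list 2 (score 51.41), both with the nearest gene end at PRXR1, a peroxidase gene. Within 100 kb of the middle of WRKY31 there were 4 list 1 peaks and 5 list 2 peaks, so the stretch around it was not free of peaks.

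WRKY42, AT4G04450, lies at chromosome 4, 2218042 to 2221260. Its nearest peaks were 186937 bp below it in list 1 (score 70.16) and 187168 bp below it in list 2 (score 89.00), with the nearest gene end at PUX4. No peak of either list lay within 100 kb of the middle of WRKY42, as for 8.04% of protein-coding genes. The same stretch held 20 other protein-coding genes, against a median of 54. WRKY42 thus lay in a gene-poor stretch without peaks, while WRKY31 and WRKY29 lay in stretches with as many peaks as or more than the median. Whether this bears on the lack of a peak at WRKY42 was not tested.

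**Figure D2:**
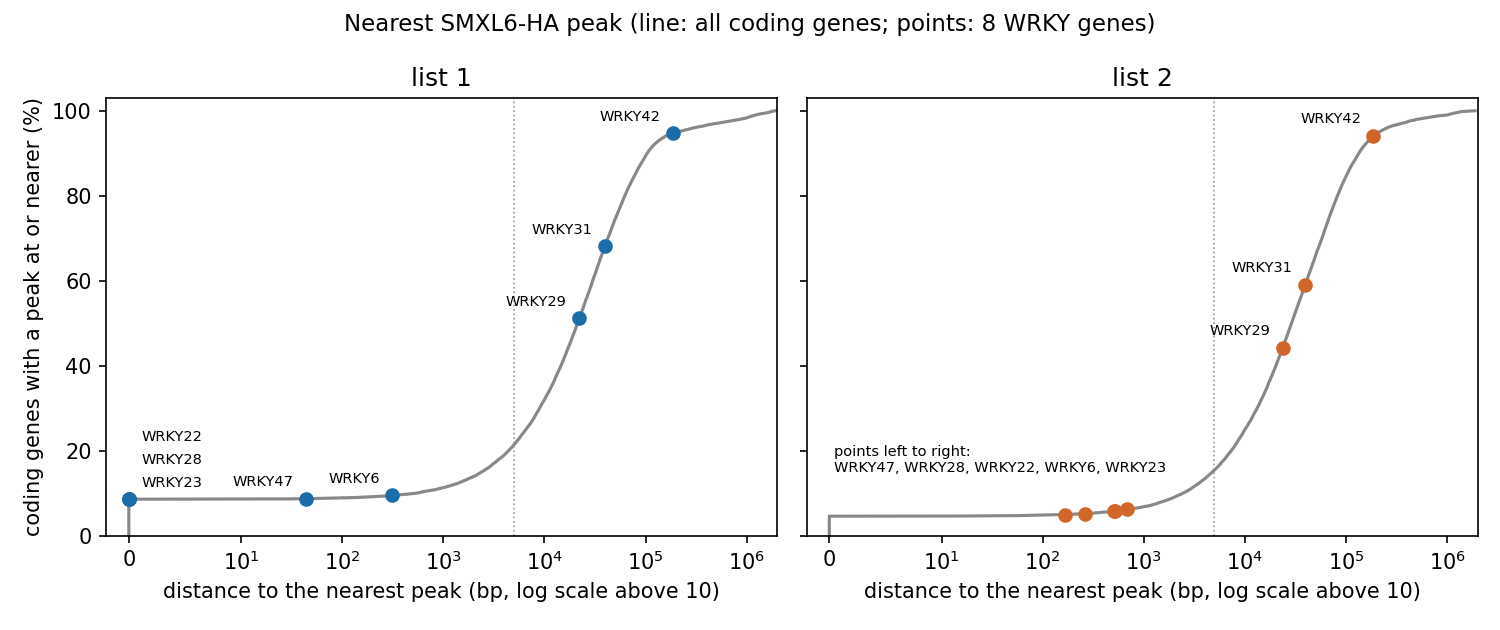
Distance to the nearest SMXL6-HA peak in list 1 (left) and list 2 (right), in bp on a scale that is linear up to 10 and logarithmic above, against the percent of protein-coding genes with a peak at that distance or nearer (grey line). Points are the 8 WRKY genes and the dotted line marks 5000 bp: 5 genes lie at 685 bp or less, and WRKY29, WRKY31 and WRKY42 lie at 22089 bp or more.

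The other 4 genes of group IIb were WRKY9, WRKY36, WRKY61 and WRKY72, and none had a peak within 5000 bp in both lists. WRKY61, singled out after its values were seen, had a list 1 peak 738 bp above it with a score of 226.32 and rank 240, higher than the list 1 peaks of WRKY6 and WRKY47. In list 2 its nearest peak was 43326 bp away. WRKY61 thus had a high score in list 1 and no peak within 5000 bp in list 2. WRKY6 and WRKY47 were chosen for their peaks in both lists, so nothing was read from the contrast with WRKY61. At WRKY9, WRKY36 and WRKY72 the nearest peak of either list was at least 15007 bp away.

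The group IIc genes WRKY23 and WRKY28 had peaks of middling or low score that ranked higher in list 2 than in list 1. WRKY23 is induced by auxin and acts in root development and in the control of flavonol synthesis. The gene, AT2G47260, lies at chromosome 2, 19404802 to 19407098. Its list 1 peak, from 19406309 to 19409327, had a score of 57.05 and rank 1563 and overlapped 34.4% of the gene at its upper end. Its list 2 peak, from 19407783 to 19409096, had a score of 102.2 and rank 624 and began 685 bp above the gene. WRKY23 had the nearest gene end to both, and the next gene above is UPB1, a bHLH gene of root growth, 4331 bp from WRKY23. In list 1, 12.7% of peaks had the score of the WRKY23 peak or a lower one, and in list 2, 56.8%.

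WRKY28 activates ICS1, a gene of salicylic acid synthesis. The gene, AT4G18170, lies at chromosome 4, 10061214 to 10062893. Its list 1 peak, from 10059628 to 10063913, had a score of 80.37 and rank 1061 and covered the whole gene, reaching 1586 bp below and 1020 bp above it. Its list 2 peak, from 10059807 to 10060951, had a score of 120.66 and rank 509 and ended 263 bp below the gene. The list 2 peak took up 37.8% of the 3028 bp between WRKY28 and KCO6, a potassium channel gene. The list 2 peak thus placed the signal below WRKY28, where the wider list 1 peak covered both sides.

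WRKY71 and WRKY8, added after values were seen, are known as close relatives of WRKY28. WRKY71 is also known as EXB1, a promoter of shoot branching. WRKY71 had its nearest peaks 47095 bp away in list 1 and 64847 bp away in list 2. WRKY8, which acts in salt and virus responses, had them 50409 bp and 57678 bp away. Among the other 15 genes of group IIc, WRKY48 had a peak within 5000 bp in both lists. WRKY48, a negative regulator of basal resistance, had list 1 peaks 2481 bp below it (score 215.28) and over its lower part (score 80.58), and a list 2 peak 2638 bp below it (score 52.45). The higher list 1 peak had its nearest gene end at PFD3, a prefoldin gene, and the list 2 peak at WRKY48.

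Among the 5 genes with peaks, the order of scores was WRKY22, WRKY28, WRKY47, WRKY6 and WRKY23 in list 1, and WRKY22, WRKY28, WRKY23, WRKY47 and WRKY6 in list 2. WRKY22 and WRKY28 kept the first and the next place. WRKY23 was last in list 1 and the third in list 2, so the order below WRKY28 was not the same in the lists, and with 1 value per list no neighbours in that order could be told apart. The gap between WRKY22 and the other 4 genes was wide in both lists, since the next scores were 80.37 and 120.66. For comparison, over the 3339 protein-coding genes with a peak within 5000 bp in both lists, the median of the highest score was 125 in list 1 and 113 in list 2, and 25% of these genes lay below 82.4 in list 1 and 74.5 in list 2. The 5 WRKY genes had medians of 74.8 and 102. WRKY22 had a higher score than 96.9% of these genes in list 1 and 95.0% in list 2, while WRKY6 exceeded 14.9% and 3.68%. WRKY28, the next in order, exceeded 24.0% of these genes in list 1 and 53.1% in list 2. With scores of at least 100 required in both lists, WRKY22 was the single one of the 8 genes left with a peak. Over all protein-coding genes, 5.33% had peaks within 5000 bp in both lists at that limit.

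**Figure D3:**
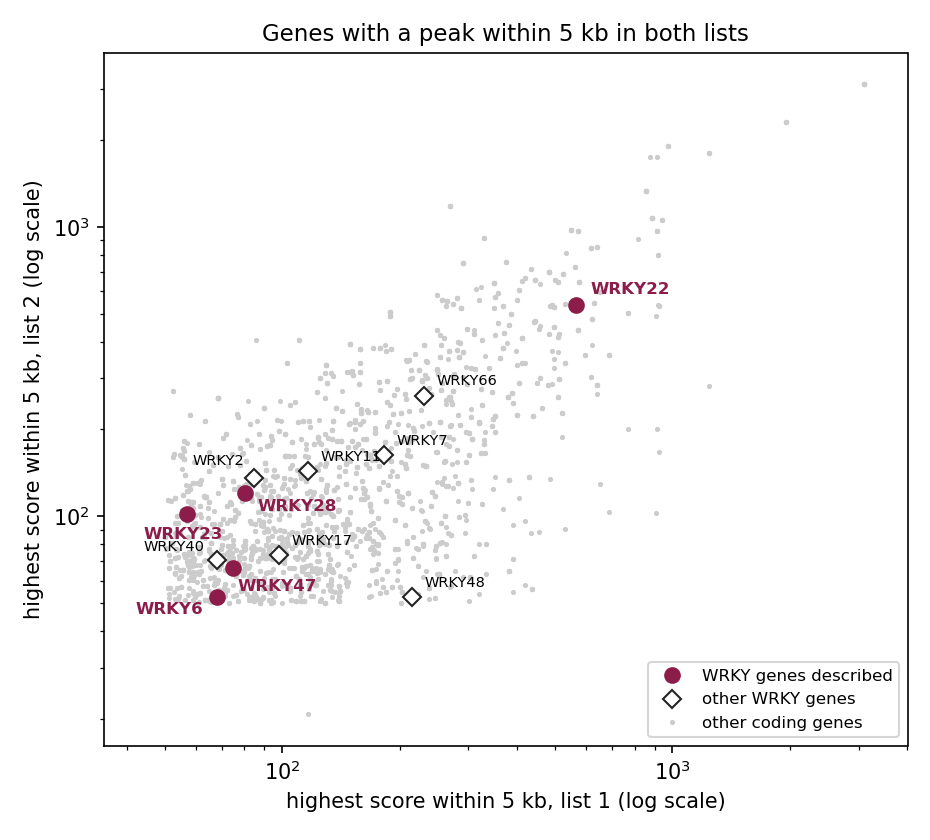
Highest peak score within 5 kb in list 1 (horizontal) and list 2 (vertical), on log scales, for protein-coding genes with a peak in both lists (grey), the 5 WRKY genes described (filled circles) and the 7 other WRKY genes (diamonds). WRKY22 lies at 567.29 and 538.28, above the other 11 WRKY genes in both lists, and WRKY6 lies at 68.25 and 52.55, toward the low end of both.

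The peaks of the lists overlapped at each of the 5 genes, and at all 5 the list 1 peak enclosed the whole of the list 2 peak. These genes were chosen for peaks in both lists, and enclosure over all peaks was not counted, so nothing was read from this. List 1 peaks were 1.25 to 3.74 times as wide, the least at WRKY47 and the most at WRKY28. Greater width was general in list 1, with a median over all peaks of 2824 bp against 1236 bp in list 2. Overlap over 50% of both peaks was met at WRKY6, WRKY47 and WRKY22 and missed at WRKY23 and WRKY28. There the list 2 peak made up 43.5% and 26.7% of the list 1 peak. Over all protein-coding genes, 1591 (5.8%) had peaks within 5000 bp that met this overlap. By comparison, 3339 (12.2%) had a peak within 5000 bp in both lists. Agreement in position was closest at WRKY6 and WRKY47, whose scores were low. Their list 1 peaks were also the narrowest of the 5 genes, with 1240 bp and 1332 bp. Overlap of both peaks depends on width, so no trait of group IIb was read from it.

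The list 2 peaks of the 5 genes all lay outside the gene, between 166 bp and 685 bp from its end. In list 1 the peaks of WRKY6 and WRKY47 lay outside too, and those of WRKY23, WRKY28 and WRKY22 reached over the gene. No end of any of the 8 genes was covered by a peak in both lists. Over the 1409 protein-coding genes with a peak within 1000 bp in both lists, list 2 peaks overlapped the gene in 67.2% and list 1 peaks in 87.4%. Both peaks lay outside the gene in 11.6% of them, as at WRKY6 and WRKY47, and the list 1 peak alone reached over it in 21.1%, as at WRKY23, WRKY28 and WRKY22. A peak outside the gene in list 2 was thus the less common arrangement, and no test of the 5 genes against the rest was made.

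At all 5 genes the list 2 peak lay on the side with the longer distance to the next protein-coding gene, counted to the next gene that does not overlap. This was below WRKY47 and WRKY28 and above WRKY6, WRKY23 and WRKY22. Of the 462 genes with peaks within 1000 bp in both lists and the list 2 peak outside, 63.9% had it on the longer side, so the same side was also the more common one in general. The longer gap measured 3028 bp to 7838 bp at the 5 genes, the least at WRKY28 and the most at WRKY47. Its median was 2510 bp over genes with a peak within 1000 bp in both lists and 2190 bp over all protein-coding genes. At the 3 genes without peaks the longer gap was 5964 bp for WRKY31, 13679 bp for WRKY42 and 6381 bp for WRKY29, the last counted past the overlapping GH9B15. Whether gap length bears on the presence of a peak was not tested.

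Group IId showed the arrangement that was more common over all protein-coding genes. Its members WRKY7, WRKY11 and WRKY17, known as negative regulators of defence, were 3 of 7 genes of that group with peaks within 5000 bp in both lists. Over all protein-coding genes this share was 12.2%. The list 2 peaks of these 3 genes lay over the gene. They covered 45.6% of WRKY7, 100% of WRKY11 and 61.4% of WRKY17. The scores were 182.15 and 162.42 at WRKY7, 116.61 and 143.01 at WRKY11, and 97.96 and 73.46 at WRKY17. WRKY21, also of group IId and added after values were seen, had a peak in list 2 alone, 754 bp above the gene. This peak had a score of 82.82 and its nearest gene end at AT2G30600. In list 2, peaks thus lay over the gene at 0 of the 5 genes described here. They did so at 3 of the 4 genes of group IId with a list 2 peak within 5000 bp. Over the 1409 protein-coding genes with a peak within 1000 bp in both lists, this was the case in 67.2%. The difference between the 5 genes and group IId is one of small numbers and was not tested.

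Over the WRKY family as a whole, the other 64 numbered genes had 7 with a peak within 5000 bp in both lists, or 10.9%. The share of all protein-coding genes was 12.2%, but the 10.9% is lowered because genes with peaks were chosen out of the family. With the 8 genes described here included, the count was 12 of 72, or 16.7%. In groups IIb, IIc and IIe together it was 6 of 33 genes, or 18.2%, 5 of them among the 8 described. The other 25 genes of these groups had 1, WRKY48, a share of 4.00% that is low in part because genes with peaks were chosen out of them. Besides WRKY48 and the 3 genes of group IId, the other genes with peaks were WRKY66, WRKY2 and WRKY40. At WRKY66 and WRKY2 another gene had the nearest end to both peaks. WRKY40, a repressor in defence and abscisic acid responses, had peaks 2453 bp and 2467 bp below it with scores of 67.99 and 70.89. None of these reached the scores of WRKY22, the next being WRKY66 with 230.39 and 261.02. Peaks in list 1 without one in list 2 were found within 5000 bp of 12 of the other 64 genes, and the converse at 1, WRKY21. Over all protein-coding genes, too, more had a peak within 5000 bp in list 1 (21.4%) than in list 2 (15.4%), with 12.2% in both. None of the 8 genes had a peak in 1 list only, which follows largely from how they were chosen.

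**Figure D4:**
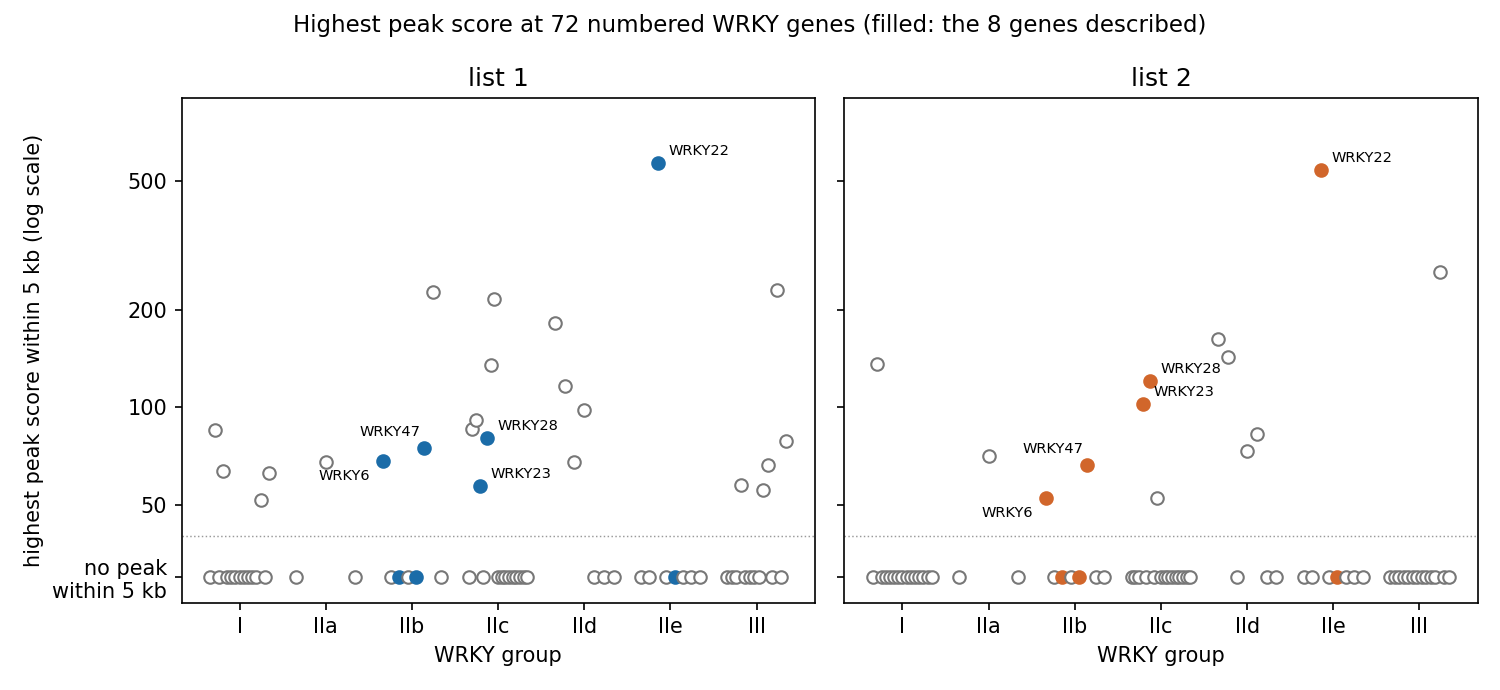
Highest peak score within 5 kb (log scale) at each of 72 numbered WRKY genes by WRKY group, in list 1 (left) and list 2 (right). Each circle is a gene, filled for the 8 genes described, and circles under the dotted line have no peak within 5 kb; WRKY22 has the highest score in both lists, 567.29 and 538.28.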

How the data were processed

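The submitters' processing notes name the aligner BWA (version 0.7.10-r789), SAMtools, the peak caller MACS (version 1.4.2) and the genome build TAIR10. Settings, sequencing depth and the handling of duplicates are not stated there. Peaks were called by the authors per replicate pair, per the labels and the deposited files, so precision per peak cannot be given. The deposited score of each peak was read as a log-scaled p-value from MACS, since all scores but 1 were at or above 50. Starts were converted to count from 1.

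Genes came from a RefSeq gene table (TAIR10.1), in which 67 of the 72 numbered WRKY genes matched by symbol and 5 by synonym. It holds neither strand nor sequence, so sides by strand, motif counts and protein identity were not used here, and gene ends stand in for start sites. WRKY groups and close relatives were given from general knowledge. The members and lists were chosen with earlier results of these data known. Named genes were the 8 genes, other WRKY genes with peaks in both lists (up to 8) and genes at the peaks. WRKY8, WRKY27, WRKY71, WRKY61 and WRKY21 were added after values were seen. No test was made. Window counts were checked on artificial genes with known distances. Python 3.11.15, pandas 2.3.3 and numpy 2.4.6 were used. Alternatives were scores of at least 100, trimmed list 1 peaks, each list alone, windows of 2000 and 10000 bp, the gene with the nearest end and reciprocal overlap of 50%.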

Additional observations from a re-analysis of the deposited data

How the results depend on the processing

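The 5 genes with a peak within 5000 bp in both lists were the same 5 with windows of 2000 bp, with windows of 10000 bp (chosen after seeing the data), with list 1 peaks cut down to the typical width in list 2 and with either list alone (5 to 5). There were 4 with the gene with the nearest end, without WRKY22, 3 with reciprocal overlap of 50% and 1 with scores of at least 100, as also within 1000 bp (1 with that score limit, 5 to 5 with either list alone). The 0 genes with a peak over a gene end in both lists became 0 to 3 with either list alone. Other WRKY genes with peaks, 7 as reported, numbered 3 with scores of at least 100, 4 with windows of 2000 bp, 4 with reciprocal overlap, 12 with windows of 10000 bp and 8 to 19 with either list alone, 19 being list 1, without replicate 2. Protein-coding genes, 3339 as reported (12.2%), numbered 1462 (5.33%), 1912 (6.97%), 1591 (5.8%) and 5623 (20.5%) under the same settings. They numbered 846 (3.08%) with the nearest end and 4238 (15.4%) to 5880 (21.4%) with either list alone, 5880 being list 1. Narrower windows and stricter limits lower counts by construction. Wider windows and either list alone can only keep or raise them, so the 5 genes could not drop out there. Nor could they with windows of 2000 bp, since their peaks lay within 685 bp. Of the values recomputed, 27 stayed within 1.5 times or were equal and 15 moved. The 27 include the peak scores of the 5 genes with a window of 1000 bp, which could not change for the same reason of distance. No paired analysis was possible because the results come from no test and each list already joins the libraries of 1 number. Motif counts were not run, and read depth is unknown, so genes without a peak may be bound below detection.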
